A study of Sus scrofa with 4 samples.

Results

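CD34, CD200, LRIG1, HOPX, PHLDA1, PROM1 and PLET1 are genes that have been used to mark the hair follicle bulge or the upper follicle in mouse, human or pig. They were read by gene symbol from the table of raw counts, and all 7 symbols were found among its 29837 named genes. Of the 7, 6 were among the 15980 genes that passed the filter on low counts, and PROM1 was not. The libraries came from epidermal cells of juvenile LGR5-H2B-GFP pigs, in which a histone H2B-GFP fusion had been knocked into an LGR5 allele, so that GFP is driven by the LGR5 promoter while the other allele still makes LGR5. The pigs descend from clonal edited fibroblasts by nuclear transfer. Epidermis and hair were separated from dermis with Dispase, dissociated with trypsin and sorted alive, and each of pigs 88R and 95R gave a GFP-high library (LGR5-high) and a GFP-negative library (LGR5-negative). H2B-GFP is diluted by cell division, so the gate follows both LGR5 promoter activity and divisions since. The sex of the 2 pigs, and whether they were founders or progeny, are not given in the sources used here.

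The bulge is the part of the outer root sheath below the sebaceous gland where slow-cycling stem cells renew the hair, and the isthmus above it holds further stem cells that supply the upper follicle and the sebaceous gland. Markers for these compartments were mostly chosen in mouse or human, and they belong to unrelated protein families. CD34, CD200, PROM1 and PLET1 are cell surface proteins that have been used for sorting, LRIG1 is a receptor inhibitor in the membrane, and HOPX and PHLDA1 act inside the cell. The comparison asks which of them were higher in cells that carry the LGR5 reporter.

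The libraries held between 30696803 and 32463362 counts on named genes. LGR5 itself, read as a check of the gate, had 4551 counts in pig 88R and 6224 in pig 95R among LGR5-high cells, and 36 and 109 among LGR5-negative cells, the direction the labels give. Levels are given as CPM, the share of a library's counts per 1e6 after TMM scaling (the default scaling of edgeR, a trimmed mean of log ratios between libraries), and 3 counts, taken as the floor of detection, correspond to between 0.0872 and 0.105 CPM. The epithelial genes KRT5, TP63, CDH1 and DSP did not pass the test in either direction, with log2 fold changes of -0.18, -0.17, 0.04 and -0.18. CPM values are not corrected for transcript length, so levels were compared between libraries and not between genes.

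CD34, CD200, PHLDA1, PLET1 and LRIG1 were higher in LGR5-high, and HOPX was lower. The differences ran from 24.6-fold for CD34 to 1.89-fold for LRIG1, and HOPX was 1.78-fold higher in LGR5-negative. PROM1 was at or below the floor in every library. The quasi-likelihood test of edgeR was adjusted over all 15980 genes by Benjamini-Hochberg, and by it 5 of the 6 testable markers were called higher at an adjusted p-value under 0.05, beside 22.7% of all tested genes, and 1 was called lower, beside 22.0%. Adding the pig to the fit as a replicate block left these 5 and 1 calls in place, beside 28.5% and 27.2%. The populations did not overlap in CPM for any of these 6 genes, as was true of 76.6% of all tested genes. The median log2 fold change of the 6 was 2.46, and that of all tested genes was 0.02. Since the RNA comes from sorted pools, a change in the share of cells that express a gene and a change in its RNA per cell cannot be told apart. Nothing beyond the pig number is given about how separate the samples were. The p-values rest on the spread between 2 libraries in each population, and edgeR borrows information on that spread from the other tested genes. The replicate block fits a further term to the same libraries, which leaves less of a gene's own spread to measure.

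**Figure D1:**
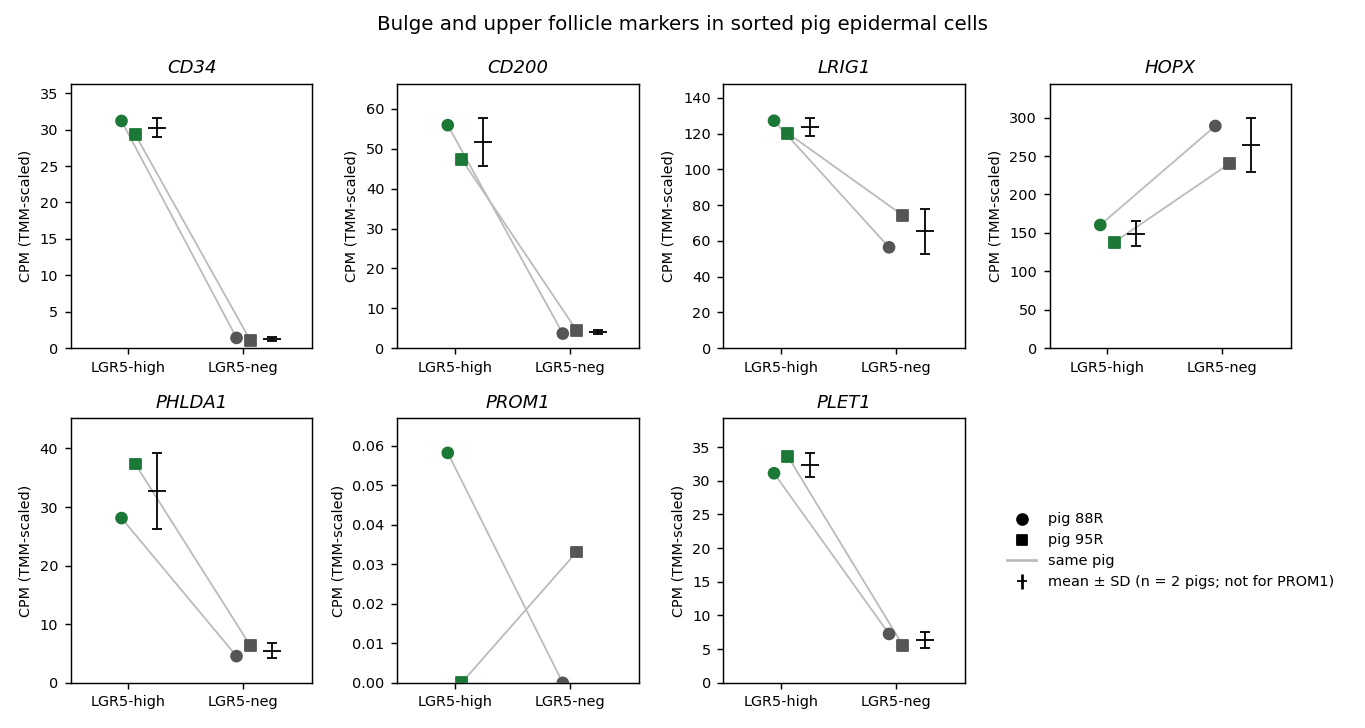
TMM-scaled CPM of each marker (y axis, separate scale in each panel, from 0) in the LGR5-high and LGR5-negative libraries of pig 88R (circles) and pig 95R (squares), joined within a pig, with mean ± SD over the 2 pigs except for PROM1. Lines fall from LGR5-high to LGR5-negative for CD34, CD200, LRIG1, PHLDA1 and PLET1 and rise for HOPX in both pigs, while the PROM1 panel spans less than 0.1 CPM and its lines cross.

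CD34 is a sialomucin of the cell surface that marks the bulge in mouse and, in other tissues, blood vessel endothelium and blood progenitors. LGR5-high cells had 1073 CD34 counts in pig 88R and 969 in pig 95R, and LGR5-negative cells had 40 and 32. These are 31.2 and 29.3 CPM against 1.40 and 1.06 CPM. Both LGR5-high libraries lay far above both LGR5-negative libraries, and the lowest LGR5-high value was 20.9 times the highest LGR5-negative value. The means were 30.3 ± 1.33 CPM (SD, n = 2) in LGR5-high and 1.23 ± 0.244 CPM (SD, n = 2) in LGR5-negative. The log2 fold change was 4.62 (edgeR, with a standard error, SE, of 0.184, a 95% confidence interval of 4.16 to 5.07 and an adjusted p of 6.65e-05), and the values within pigs 88R and 95R were 4.41 and 4.71. Of all tested genes, 98.4% had a lower log2 fold change.

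Endothelial, fibroblast and blood cells can also carry CD34, and their markers were read in the same libraries. The 11 endothelial markers summed to between 15.7 and 18.3 CPM in LGR5-high and between 26.2 and 28.4 CPM in LGR5-negative. Of the 10 tested, 6 were lower and 2 were higher, the latter being TIE1 and EGFL7, with log2 fold changes of 0.99 and 1.06. With the replicate block PECAM1, an adhesion protein of endothelium, was also lower (edgeR, adjusted p = 0.00215). CDH5, the cadherin of endothelial junctions, had 1 count in each LGR5-high library and 17 and 21 in LGR5-negative. ROBO4 had 0 counts in both LGR5-high libraries and 10 and 11 in LGR5-negative. VWF had a log2 fold change of -2.84. The 7 immune and mast cell markers summed to between 1.33 and 1.86 CPM in LGR5-high and between 17.3 and 21.4 CPM in LGR5-negative, and 3 of the 4 tested were lower, among them PTPRC, the pan-leukocyte surface protein CD45, with 7 and 4 counts in LGR5-high and 55 and 86 in LGR5-negative. The receptor gene CSF1R carried the sum of this list, with a mean of 1.05 CPM in LGR5-high against 15.2 in LGR5-negative. CPA3, a mast cell protease, did not exceed 1 count in any library. The part of these cells in the difference of CD34 was not tested.

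The 9 dermal fibroblast markers moved in both directions. Their summed level was between 1233 and 1477 CPM in LGR5-high and between 369.5 and 676 CPM in LGR5-negative, moving with CD34, and their part in its difference was not tested. The collagen genes COL1A1 and COL1A2 and the surface protein THY1 were higher, with log2 fold changes of 1.85, 3.70 and 1.33. The pigs differed widely, with 0.60 in 88R and 3.15 in 95R for COL1A1, 3.11 and 4.54 for COL1A2, and 0.91 and 1.99 for THY1. The remaining 5 of the 8 tested were lower, with log2 fold changes of -3.09 for COL3A1, -0.82 for DCN and -2.15 for DPT. The receptor PDGFRA, also lower, had 4 and 3 counts in LGR5-high and 21 and 21 in LGR5-negative. The proteoglycan LUM, lower as well, had 5 and 0 counts in LGR5-high and 47 and 31 in LGR5-negative.

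Of the relatives of CD34, PODXL was higher in LGR5-high and PODXL2 was lower. PODXL, podocalyxin, had 75 and 76 counts in LGR5-high and 34 and 22 in LGR5-negative, which gave a log2 fold change of 1.22 (edgeR, SE 0.345, adjusted p = 0.0329). Its call was lost in DESeq2, with scaling by ACTB and GAPDH, and without either LGR5-high library or the LGR5-negative library of pig 95R, where the log2 fold change lay between 0.90 and 1.25. PODXL2, endoglycan, went the other way, with 201 and 236 counts against 413 and 460 and a log2 fold change of -1.19 (edgeR, SE 0.164, adjusted p = 0.00273).

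CD200 is an immunoglobulin-family surface glycoprotein that restrains myeloid cells through its receptor CD200R1, and it has served to enrich human bulge cells. CD200 counts were 1924 in pig 88R and 1567 in pig 95R among LGR5-high cells, against 104 and 135 among LGR5-negative cells. The levels were 55.9 and 47.4 CPM in LGR5-high and 3.65 and 4.47 CPM in LGR5-negative, without overlap. Within LGR5-high the pig with the higher value was 88R, and within LGR5-negative it was 95R. The means were 51.7 ± 6.03 CPM (SD, n = 2) and 4.06 ± 0.578 CPM (SD, n = 2), a 12.7-fold difference. The log2 fold change was 3.67 (edgeR, SE 0.163, 95% confidence interval 3.27 to 4.07, adjusted p = 8.28e-05), higher within pig 88R (3.92) than within pig 95R (3.39). CD200R1 had between 2 and 5 counts in the 4 libraries and was not tested.

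PHLDA1 encodes a pleckstrin homology-like protein linked to cell survival and stress, which marks the bulge and outer root sheath in human follicles. Its counts were 967 and 1234 in LGR5-high and 130 and 192 in LGR5-negative, in the order 88R and 95R. In CPM these are 28.1 and 37.3 against 4.56 and 6.35, so pig 95R had the higher level in both populations while the populations stayed apart. The level of pig 95R was above that of pig 88R by 32.8% in LGR5-high and by 39.3% in LGR5-negative. The means were 32.7 ± 6.52 CPM (SD, n = 2) and 5.45 ± 1.27 CPM (SD, n = 2). PHLDA1 had a log2 fold change of 2.58 (edgeR, SE 0.226, 95% confidence interval 2.02 to 3.14, adjusted p = 5.46e-04), and the estimates of the pigs, 2.61 and 2.54, lay close together.

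The other members of the PHLDA family were lower in LGR5-high. PHLDA2, known as an imprinted growth regulator of the placenta, had 2858 and 3160 counts in LGR5-high and 6656 and 5099 in LGR5-negative. Its log2 fold change was -1.17 (edgeR, SE 0.169, adjusted p = 0.00326). PHLDA3, a p53 target that restrains AKT, had a log2 fold change of -0.34 (edgeR, SE 0.107, adjusted p = 0.0463). The call of PHLDA3 was lost with upper quartile scaling, with library size only, with a filter of 10 counts in every library, and without either LGR5-high library or the LGR5-negative library of pig 88R, where the log2 fold change lay between -0.40 and -0.12. Early response genes, which dissociation can induce, were measured because PHLDA1 also responds to stress. Of the 9 tested, 4 were lower in LGR5-high and 1 was higher, with a median log2 fold change of -0.27, and 7 were lower with the replicate block. The higher one was IER3, with a log2 fold change of 1.04, and the largest decreases were ATF3 with -0.90 and DUSP1 with -0.77. DUSP1 lost its call with upper quartile scaling and library size only, and without either LGR5-high library or the LGR5-negative library of pig 95R, with -0.44 the value nearest to 0.

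PLET1 is a surface protein first described in placenta, whose antibody epitope marks progenitor cells of the upper follicle in mouse. Pigs 88R and 95R gave 1070 and 1111 PLET1 counts from LGR5-high cells, and 207 and 168 from LGR5-negative cells. The values of 31.1 and 33.6 CPM in LGR5-high lay above those of 7.26 and 5.56 CPM in LGR5-negative. The means were 32.4 ± 1.77 CPM (SD, n = 2) and 6.41 ± 1.20 CPM (SD, n = 2). PLET1 had a log2 fold change of 2.34 (edgeR, SE 0.167, 95% confidence interval 1.92 to 2.75, adjusted p = 2.85e-04), lower within pig 88R (2.09) than within pig 95R (2.58).

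LRIG1 encodes a membrane protein with leucine-rich repeats that turns down signalling by the ERBB receptors and MET, and it marks stem cells above the bulge in mouse. Its counts were 4376 and 3974 in LGR5-high and 1608 and 2245 in LGR5-negative. The levels of 127 and 120.2 CPM in LGR5-high lay above those of 56.4 and 74.3 CPM in LGR5-negative, with the narrowest gap among the markers that were higher. The lowest LGR5-high value was 1.62 times the highest LGR5-negative value. The means were 124 ± 4.95 CPM (SD, n = 2) and 65.3 ± 12.6 CPM (SD, n = 2). LRIG1 had a log2 fold change of 0.92 (edgeR, SE 0.140, 95% confidence interval 0.57 to 1.27, adjusted p = 0.00394). Within pig 88R the log2 fold change was 1.17, within pig 95R it was 0.69, and the level of pig 95R was 31.7% above that of pig 88R in LGR5-negative.

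The LRIG family and the receptors that LRIG1 acts on differed among themselves. LRIG3, with 6717 and 6954 counts in LGR5-high and 2761 and 4364 in LGR5-negative, had a log2 fold change of 0.75 (edgeR, SE 0.187, adjusted p = 0.0219). The call of LRIG3 was lost with scaling by ACTB and GAPDH, where its log2 fold change was 0.44, and without either LGR5-high library, where it was 0.70 and 0.80. LRIG2 had a log2 fold change of 0.04 with a 95% confidence interval of -0.24 to 0.31. EGFR and ERBB2, at -0.10 and -0.14, did not pass the test either, with intervals of -0.31 to 0.11 and -0.34 to 0.05, though both were called lower with scaling by ACTB and GAPDH at log2 fold changes of -0.41 and -0.44. Other receptors were lower in LGR5-high. ERBB3, which signals in partnership with ERBB2, had 6915 and 5580 counts in LGR5-high and 9400 and 9631 in LGR5-negative, a log2 fold change of -0.81. ERBB4 had 27 and 34 counts in LGR5-high and 93 and 134 in LGR5-negative, a log2 fold change of -2.08. MET, the receptor for hepatocyte growth factor, had 1747 and 1683 counts in LGR5-high and 4286 and 3723 in LGR5-negative, a log2 fold change of -1.43 (edgeR, SE 0.115, adjusted p = 4.15e-04).

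HOPX, an atypical homeodomain protein that does not bind DNA and acts through other regulators such as SRF and HDAC2, marks bulge stem cells in mouse. It was the marker that was lower in LGR5-high. LGR5-high cells gave 5511 HOPX counts in pig 88R and 4549 in pig 95R, and LGR5-negative cells gave 8243 and 7252. The levels were 160.2 and 138 CPM in LGR5-high and 289 and 239.9 CPM in LGR5-negative, and the lowest LGR5-negative value was 1.50 times the highest LGR5-high value. Pig 88R had the higher level in both populations. The means were 149 ± 16.0 CPM (SD, n = 2) and 264 ± 34.8 CPM (SD, n = 2). HOPX had a log2 fold change of -0.83 (edgeR, SE 0.126, 95% confidence interval -1.14 to -0.52, adjusted p = 0.00395), with -0.85 and -0.80 in pigs 88R and 95R.

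The partners of HOPX moved in different directions. SRF, serum response factor, had 3792 and 3444 counts in LGR5-high and 6619 and 7047 in LGR5-negative, and a log2 fold change of -1.12 (edgeR, SE 0.0772, adjusted p = 2.58e-04). HDAC2, a histone deacetylase, had a log2 fold change of 0.45 (edgeR, adjusted p = 0.00656), and its call was lost with scaling by ACTB and GAPDH, where the log2 fold change was 0.15. Genes of the suprabasal epidermis also were lower in LGR5-high, 7 of the 8 tested, with a median log2 fold change of -2.66. The suprabasal keratins KRT1 and KRT10 had the lowest values, -3.56 and -3.44. Their part in the difference of HOPX was not tested.

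PROM1, the pentaspan membrane protein CD133 found on cell protrusions, was at the limit of detection. LGR5-high cells had 2 PROM1 counts in pig 88R and 0 in pig 95R, and LGR5-negative cells had 0 and 1. No library exceeded the floor of 3 counts, so no fold change is given, and a level below the floor would not have been seen in either population. Its relative PROM2, a prominin of epithelial cells, was well detected. PROM2 had 4195 and 4065 counts in LGR5-high and 6976 and 7887 in LGR5-negative, and its log2 fold change was -1.05 (edgeR, SE 0.0784, adjusted p = 3.33e-04). Luminal gland markers, read because glands carry PROM1 in other tissues, summed to between 76.9 and 107 CPM in LGR5-high and between 7.28 and 7.82 CPM in LGR5-negative, with 3 of the 6 tested higher. KRT8 carried the LGR5-high sum, with a mean of 81.6 CPM there against 1.56 in LGR5-negative, a log2 fold change of 5.70. KRT7 and AQP5 were also higher, at 1.58 and 2.86, AQP5 with only 13 and 22 counts in LGR5-high. KRT18, MUC1 and ELF5 were not called, at -0.59, 0.07 and 0.27.

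**Figure D2:**
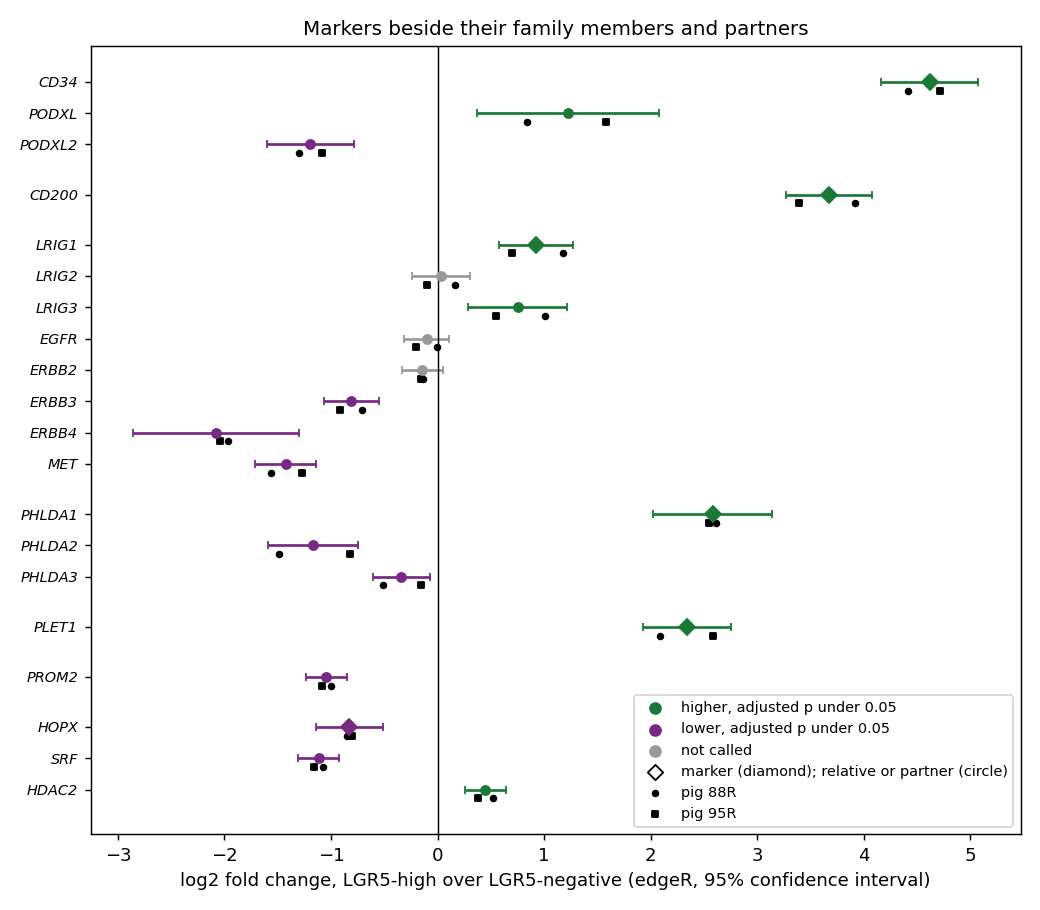
Log2 fold change of LGR5-high over LGR5-negative (x axis, edgeR, with 95% confidence intervals) for the 6 tested markers (diamonds) and for family members and binding partners (large circles), coloured by call, with the values of pig 88R (small circles) and pig 95R (small squares) under each. CD34 at 4.62, CD200 at 3.67, PHLDA1 at 2.58 and PLET1 at 2.34 lie to the right of every relative and partner, while the intervals of LRIG1 and LRIG3 overlap and HOPX lies among the lower genes.

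Of the 16 family members and binding partners, 14 were tested, with 3 higher, 8 lower and 3 not called. Their median log2 fold change was -0.58, against 0.02 for all tested genes. Those that were higher, PODXL, LRIG3 and HDAC2, kept no call with scaling by ACTB and GAPDH, and without either LGR5-high library only 1 was called.

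How far each marker was depleted from the GFP-negative cells can be read against LGR5 itself. In pigs 88R and 95R, the LGR5-negative level was 0.954% and 1.91% of the LGR5-high level for LGR5. For CD34 it was 4.50% and 3.61%, and for CD200 6.52% and 9.42%. PHLDA1 kept 16.2% and 17.0%, PLET1 23.3% and 16.5%, and LRIG1 44.3% and 61.8% of its LGR5-high level. The order of these markers was the same in both pigs except for PHLDA1 and PLET1, which changed places. For HOPX the LGR5-negative level was 180.4% and 174% of that in LGR5-high.

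Other genes of the bulge and of follicle stem cells were read for context. Of 21, all of them tested, 16 were higher, among them LGR5, the gene whose reporter set the gate. The median log2 fold change was 2.80, beside 2.46 for the markers. Both lists were chosen with earlier results of these data known. The transcription factor genes TBX1 and LHX2 had the highest values, 6.49 and 6.35. The keratin gene KRT15, used like CD34 to mark the mouse bulge, had 38359 and 77482 counts in LGR5-high and 20376 and 40007 in LGR5-negative. Pig 95R had more counts than pig 88R in both populations. The log2 fold change of 0.76 (edgeR, SE 0.417, adjusted p = 0.187) did not pass the test, but with the pig as a replicate block it did (edgeR, adjusted p = 2.13e-06). DIO2, a deiodinase of thyroid hormone, had a log2 fold change of -0.87 and was called lower with that block (edgeR, adjusted p = 7.23e-04). KRT15 and DIO2 were singled out after their values were seen. Upper follicle and sebaceous genes, the compartment that LRIG1 and PLET1 mark in mouse, were divided. Of the 8 tested from 11, 3 were higher and 2 were lower, with a median of 0.64. With the replicate block FAR2, a fatty acyl-CoA reductase, was also higher (edgeR, adjusted p = 0.0308). LGR6, an isthmus stem cell receptor, and the protease inhibitor CST6 had log2 fold changes of 2.86 and 2.51. PRDM1, a transcriptional repressor, and the upper follicle keratin KRT79 had -1.09 and -0.98. Of the 5 basal epidermis genes tested, 3 were lower, among them the integrin gene ITGA6 with -0.94, and the median was -0.38. COL17A1, with -0.47, lost its call with library size only and without either LGR5-high library, where the log2 fold change lay between -0.50 and -0.25.

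**Figure D3:**
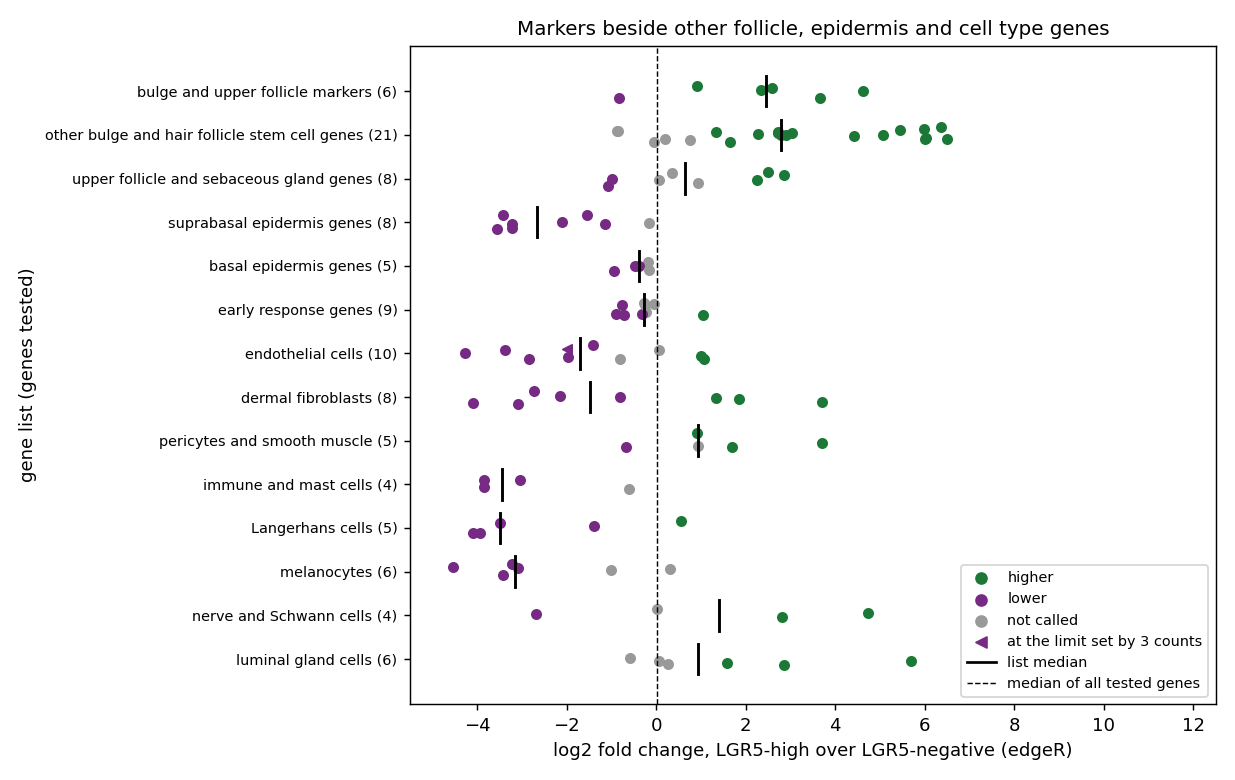
Log2 fold change of LGR5-high over LGR5-negative (x axis, edgeR) for each tested gene of the markers and of the other gene lists (y axis, number tested in parentheses), coloured by call, with the median of each list (bar) and of all tested genes (dashed line); a triangle shows ROBO4, with 0 counts in both LGR5-high libraries, at the limit set by 3 counts. The markers, with a median of 2.46, and the other bulge genes, with 2.80, lie mostly to the right, and the suprabasal genes, with -2.66, to the left.

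Markers of the remaining cell types of skin also differed between the populations. Langerhans cell markers summed to between 50.9 and 57.3 CPM in LGR5-high and between 122 and 156 CPM in LGR5-negative, with 4 of 5 lower. The member that was higher, the epithelial adhesion protein EPCAM, made up most of the LGR5-high sum, with a mean of 46.6 CPM there against 31.9 in LGR5-negative. CD74, the invariant chain of class II antigen presentation, had means of 6.48 against 99.4 CPM. Melanocyte markers summed to about 61.9 CPM in both LGR5-high libraries and to between 82.7 and 255 CPM in LGR5-negative, with 4 of 6 lower. With the replicate block 5 were lower, DCT included, and MITF was higher. The pericyte and smooth muscle markers summed to between 383 and 395 CPM in LGR5-high and between 554 and 651 CPM in LGR5-negative, with 3 of the 5 tested higher and 1 lower. The lower one, the receptor NOTCH3, carried the sum, with an LGR5-high mean of 376 CPM against 598, and the contractile genes MYH11 and CNN1 were higher, with 5.34 against 2.83 CPM and 4.70 against 0.358 CPM. The nerve and Schwann cell markers summed to between 58.8 and 78.8 CPM in LGR5-high and between 5.44 and 10.7 CPM in LGR5-negative. Of these, NGFR and S100B were higher and SOX10, which defines Schwann cells and melanocytes, was lower, with 19 and 23 counts against 66 and 174. The part of these cells in the differences of the markers was not tested.

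The study's RT-qPCR, in which CD34 was among the genes assayed, was scaled by ACTB and GAPDH and then set against unsorted epidermis. Only the scaling by ACTB and GAPDH was applied to the counts, since no unsorted library was among them, so the measures are not the same. ACTB had a log2 fold change of 0.22 (95% confidence interval -0.02 to 0.45, adjusted p = 0.120), and GAPDH was higher in LGR5-high at 0.38 (edgeR, adjusted p = 0.0129), a call lost without either LGR5-high library. ACTB was called higher with the replicate block (edgeR, adjusted p = 0.0453), with upper quartile scaling and with library size only. Per 1000 counts of their geometric mean, CD34 had 19.5 and 18.8 counts in LGR5-high and 1.05 and 0.856 in LGR5-negative, in the order 88R and 95R. LRIG1 had 79.6 and 77.0 in LGR5-high and 42.2 and 60.1 in LGR5-negative, and HOPX had 100.2 and 88.1 against 216 and 194. With this scaling the median over all tested genes moved from 0.02 to -0.28. The log2 fold change was then 4.32 for CD34, 3.36 for CD200, 2.28 for PHLDA1, 2.04 for PLET1, 0.61 for LRIG1 and -1.12 for HOPX, each on the same side of the threshold as before. With it 15.6% of all tested genes were higher and 37.7% were lower. With library size only, 34.2% were higher and 14.6% lower, and the median of all genes was 0.24.

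**Figure D4:**
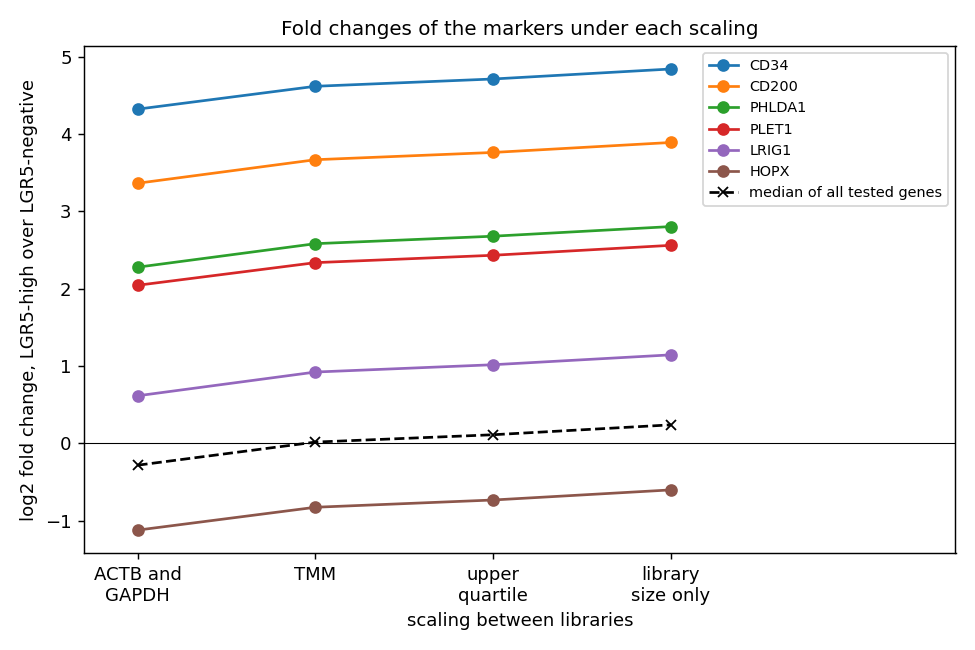
Log2 fold change of LGR5-high over LGR5-negative (y axis) of the 6 tested markers and the median of all tested genes (dashed line) under 4 scalings between libraries (x axis). All lines rise in parallel from scaling by ACTB and GAPDH to library size only, CD34 from 4.32 to 4.84 and HOPX from -1.12 to -0.60, and no marker crosses 0.

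The genes most like each marker were found by the root mean square difference of log2 CPM over the 4 libraries, with each gene centred on its own mean. CD34 was closest to KIAA1549L, the neurotensin receptor gene NTSR1 and the tenascin gene TNC, with differences of 0.0729, 0.122 and 0.150. NTSR1 had a mean of 0.0175 CPM in LGR5-negative, below the floor, so its place depends on the prior count added before taking logs. CD200 was closest to the WNT antagonist gene SFRP1 (0.0508), FAM171A2 and STAG3. PHLDA1 was closest to ANGPTL7 (0.0390), the cadherin gene CDH11 and IL17D, and PLET1 to PDE9A (0.0289), DACT2 and the non-muscle myosin gene MYH14. ANGPTL7 had 4 and 7 counts in LGR5-negative, so its place also depends on the prior count. IL17D, PDE9A, FAM171A2 and STAG3 were low in LGR5-negative too, with means of 0.406, 0.427, 0.576 and 0.662 CPM. The prior count therefore enters their places as well. LRIG1 was closest to PARP3 (0.0299), NBEAL1 and EPB41L1, and HOPX to FNBP1 (0.0211), SIGLEC11 and JPT1. SIGLEC11 was low, with an LGR5-high mean of 0.207 CPM against 0.410, and was not called (edgeR, adjusted p = 0.151). With 4 libraries many genes share a pattern. Within a difference of 0.25 there were 25 genes for CD34, 77 for CD200, 140 for PHLDA1, 165 for PLET1, 1012 for LRIG1 and 1855 for HOPX. Among the markers themselves, PHLDA1 and PLET1 were the nearest pair with 0.341, followed by CD34 and CD200 with 0.516, and CD34 and HOPX were the farthest with 2.70.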

How the data were processed

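Poly(A) RNA of sorted LGR5-high and LGR5-negative epidermal cells from pigs 88R and 95R was read in paired ends. What the authors deposited for the 4 libraries are raw counts by gene symbol, not normalized. The submitters' processing notes name Trimmomatic 0.36, STAR 2.5.2b, featureCounts and Subread 1.5.2. The genome build, annotation and strand setting are not given in the sources used here, so overlapping genes and paralogs may share reads. An entry without a name, 0.360% to 0.626% of counts, was left out. All 29837 symbols matched RefSeq Sscrofa11.1, used for names only.

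Counts were tested in R 4.3.3 with edgeR 4.0.16 (filterByExpr, minimum count 10 and minimum total 15; TMM; quasi-likelihood test, 2-sided, Benjamini-Hochberg over all genes, population as the only term). A count test was used because the values are counts. The study's methods name no term for the pig, and the main fit has none. Standard errors come from the log2 fold change and its F statistic. Values per pig used a prior count of 2. The libraries are paired by pig, and after subtracting each population's mean the libraries of a pig correlated at 0.370 across 15980 genes. Counting floors cover counting error only. Alternatives used limma 3.58.1 and DESeq2 1.42.0, and the fits were tested on simulated data. Plots were drawn with matplotlib 3.10.9. The markers and gene lists were chosen with earlier results of these data known. Named were all markers, all tested family members and partners, from each other list up to 2 called genes in each direction with the largest changes, the 3 genes of most similar pattern, and LGR5, ACTB and GAPDH. Genes of the cell type lists, KRT15, DIO2 and FAR2 were named after their values were seen. The GFP-low population, sequences, RT-qPCR and imaging were not analysed here, and some listed genes are not analysed or not reported here.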

Additional observations from a re-analysis of the deposited data

How the results depend on the processing

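All 15 alternatives kept the 5 markers called higher and the 1 called lower. The alternative with a prior count of 2 changes the log2 fold change only, so its calls could not differ from the main fit. Leaving out each library in turn moved the log2 fold change to between 4.42 and 4.83 for CD34, 0.73 and 1.12 for LRIG1 and -0.97 and -0.69 for HOPX, with the highest adjusted p-values 0.00108, 0.0204 and 0.0313 from edgeR. A fit that leaves a population with 1 library assumes that it varies like the other. With the pig as a replicate block CD34 had 4.62, LRIG1 0.93 and HOPX -0.83, and no call of a marker changed. Taking all genes with at least 1 count, PROM1 had an adjusted p-value of 0.830.

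Counts over gene lists and over all genes moved more, and the cause was not tested. Unscaled libraries (library size only) gave 5473 higher and 2328 lower genes against 3632 and 3508, 1 basal epidermis gene was lower in place of 3 and 1 early response gene in place of 4. With scaling by ACTB and GAPDH 6018 genes were lower, 0 family members and partners were higher in place of 3, and 5 basal epidermis and 2 other bulge genes were lower in place of 3 and 0. Upper quartile scaling left 2 early response genes lower, and the replicate block called 7. The replicate block, DESeq2 and DESeq2 with the block each called 1 other bulge gene lower. Leaving out each library in turn gave 2279 to 3169 higher and 2139 to 3004 lower genes, fewest without the LGR5-high library of pig 95R. It gave 1 to 3 higher family members and partners, 1 to 3 lower basal genes, 1 to 4 lower early response genes and 0 to 1 lower other bulge genes. Of the 48 genes other than the markers that the naming rule chose, 10 changed their call under an alternative and 0 reversed. KRT15, DIO2, FAR2 and genes of the cell type lists, named after their values were seen, are not counted there. With 2 against 2 libraries, exact permutation of 1 gene's values could not reach the threshold and was not run.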
